A study of Mus musculus with 12 samples.

Results

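The genes described here encode the ion transport apparatus of the sperm flagellum that moves potassium, sodium, protons, calcium and anions, together with the adenylyl cyclase that answers to bicarbonate. The set was named by function and not by measured values: Kcnu1 and Lrrc52 (potassium channel and its auxiliary subunit), Atp1a4 (sodium pump), Slc9c1 (sodium-proton exchanger), Hvcn1 (proton channel), Slc26a3 and Slc26a8 (anion transporters), Atp2b4 (calcium pump) and Adcy10 (soluble adenylyl cyclase). Of the 9 genes, 8 had a row among the 28643 symbols used. Slc26a3 was not analysed here. Of the 8, 7 passed the filter of a mean FPKM above 0.1 in every comparison and were tested, and Hvcn1 did not pass it.

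The libraries were made from round spermatids, the haploid cells that follow meiosis, sorted by flow cytometry in cycloheximide from the testes of 8-week-old male mice. Controls were heterozygous (Igf2bp3+/-), so they too carried the Cas9 frameshift on 1 of their alleles, and knockouts were homozygous (Igf2bp3-/-). By the study's methods, knockout males with impaired fertility were chosen for experiments, so they do not stand for all males of that genotype. A part of each cell extract was sequenced as total RNA (RNA-seq), and mRNAs from the polysome fractions of a sucrose gradient made up the RNC-seq libraries (ribosome nascent-chain complexes). The 4 combinations of genotype and assay have 3 libraries each, 12 in all. Values are FPKM, a read density scaled to transcript length and library size, and are given as mean ± SD with n = 3.

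Mature sperm carry little transcription, and the proteins of the flagellum are made from mRNAs that spermatids produce and, for many, store before translation. KCNU1 (SLO3) is the pore of the sperm-specific potassium channel that hyperpolarizes the membrane during capacitation, and LRRC52 is its auxiliary subunit. ATP1A4 is the sodium pump isoform of the sperm tail and keeps up the sodium gradient. SLC9C1 couples a voltage sensor and a cyclic nucleotide-binding domain to sodium-proton exchange, and ADCY10 makes cAMP when bicarbonate rises. Loss of several of these genes in mice leaves males infertile with poorly moving sperm.

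Since the RNC-seq libraries hold the mRNAs on polysomes, the bases around the annotated start codon of each gene are shown first, with the ATG in capitals, 9 bases before it and 18 after it. They were read from the GENCODE M21 transcripts of GRCm38.
Kcnu1: tttctcaagATGtctcaaacattgctagac
Lrrc52: cttcttactATGtcccttgcttcaggccct
Atp1a4: gatcatattATGgagcctggaaaagaaaag
Slc9c1: taattaaacATGgaaatggaagaaatttct
Adcy10: tccttgaacATGagtgcgcgaaggcaggaa
Slc26a8: ccaggaacaATGcaaacagagaggagcctc
Atp2b4: gaaggcaaaATGacgaatccaccaggacaa
Hvcn1: aacaggaaaATGacttcccatgacccaaag

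All 8 have a purine (A) 3 bases before the ATG, a position at which 85.3% of 12234 background genes also have a purine. These are the genes with a mean FPKM above 0.1 in both assays and an annotated leader of at least 9 bases, and Hvcn1 is not among them. Only Atp1a4 and Slc9c1 have a G directly after the ATG, as 51.5% of those genes do. The annotated leader, the stretch before the ATG, is shortest in Kcnu1 (33 bases), Lrrc52 (66 bases) and Atp1a4 (86 bases), and these are the only members without a further ATG in it. It is 168 bases in Slc9c1, 213 in Adcy10, 285 in Slc26a8, 370 in Hvcn1 and 873 in Atp2b4, against a median of 163 over all those genes. The longer leaders hold between 1 (Hvcn1) and 5 (Atp2b4) upstream ATGs, and 51.6% of the background genes hold at least 1. These are annotated leaders, and whether round spermatids use the same start sites was not tested.

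The genes are spread over 5 chromosomes of GRCm38. Adcy10 (1:165485183-165576774, plus strand), Lrrc52 (1:167445669-167466780, minus strand) and Atp1a4 (1:172223513-172258414, minus strand) lie near each other on chromosome 1, where Atp2b4 is also found (1:133699457-133801041, minus strand). Kcnu1 is on chromosome 8, Slc9c1 on 16, Slc26a8 on 17 and Hvcn1 on 5. All are protein-coding. Exons of Hvcn1 overlap Tctn1 on the opposite strand over 44.2% of their bases, and reads there cannot be told apart since strand use in counting is not stated. The other 7 share less than 1% of their exonic bases with another gene. Of the 8, 6 (all but Kcnu1 and Hvcn1) had a RefSeq promoter in GRCm38.p6. None of these held the cAMP response element letters TGACGTCA or its part TGACG on either strand in the 250 bases before the start, where 1.55% and 17.8% of 32851 promoters do, which says only that these letters are not in this window. The start is that of RefSeq. For Atp2b4 the window (1:133753748-133753997) lies inside the gene span given above, so the bases before its outermost annotated start were not read. For Slc26a8 it lies almost wholly inside the annotated gene.

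Depth is unknown because the file holds no counts. Between 21490 and 25633 genes had an FPKM above 0 in a library, and the transcript CT010467.1 alone took 5.68% to 19.4% of the summed FPKM. Igf2bp3 itself was still detected in the knockout, at 31.7, 32.5 and 31.4 FPKM in RNA-seq against 38.2, 38.6 and 33.4 in Igf2bp3+/-, a difference that did not pass the test (log2 change -0.20 ± 0.09 SE, limma adjusted p = 0.335). A frameshift need not lower the mRNA, so this level does not check the labels. All 8 round spermatid markers were present. Their summed FPKM in RNA-seq was 987 to 1174 in Igf2bp3+/- and 1240 to 1472 in Igf2bp3-/-, without overlap, and 4 of the 8 were each separate. In RNC-seq the sum was 1444 to 1724 and 1690 to 1998, with overlap. All 6 elongating spermatid markers were present too, so these lists do not tell the stages apart. They summed to 9069–11690 in Igf2bp3+/- and 10165–10289 in Igf2bp3-/- RNA-seq, and to 12334–14727 and 11191–21961 in RNC-seq. Odf1 was the lowest of them (65.2–85.3 in Igf2bp3+/- RNA-seq). None was separate in RNA-seq, while in RNC-seq Oaz3 and Odf1 were higher in Igf2bp3-/- without overlap. Spermatocyte markers summed to 81.1–102 and 93.5–116 in RNA-seq and to a mean of 155 and 117 in RNC-seq, and spermatogonia markers to a mean of 8.31 and 8.21 in RNA-seq. In RNA-seq 2 of 6 spermatocyte markers (Meiob and Tex15) and 1 of 5 spermatogonia markers (Stra8) were lower in Igf2bp3-/- without overlap. None of either list was separate as higher there. Of somatic lists, the 6 Leydig cell markers were each higher in Igf2bp3-/- without overlap, with a summed RNA-seq FPKM of 15.2 to 22.5 in Igf2bp3+/- and 48.4 to 54.7 in Igf2bp3-/-, most of it Insl3 (10.9–17.9 and 36.1–43.8). In RNC-seq the Leydig sum was 6.71 to 14.3 and 51.4 to 102. Blood and macrophage markers went from 6.72–7.31 to 14.4–15.9 in RNA-seq, with 5 of 6 separate. Sertoli cell markers summed to 3.32–4.23 and 7.13–7.72, but of the 5 present only Clu was separate in RNA-seq (2.74–3.63 and 6.63–6.79), and Rhox5 was at 0 in a library. Peritubular cell markers summed to 1.94–2.31 and 4.42–5.49 in RNA-seq, where Dcn was the only 1 of 4 separate as higher (0.665–1.01 and 3.36–4.73), while Myh11 and Tagln were lower in Igf2bp3-/- without overlap and Tagln was at 0 in a library. Igf2bp3-/- RNC-seq replicate 2 stood apart for several members, and limma results that rest on it are given with and without it. In such bulk samples, fewer cells of a type and less RNA per cell cannot be told apart.

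Atp1a4 was the most abundant of the set. In Igf2bp3+/- RNA-seq its libraries read 179, 198 and 223 FPKM (SD 22.5, n = 3), and it ranked 352 of 26741 genes above 0, within the top 1.32%. In Igf2bp3-/- RNA-seq it read 174, 195 and 190 FPKM, so the groups overlapped. In RNC-seq it read 118, 136 and 160 FPKM in Igf2bp3+/- and 137, 226 and 134 FPKM in Igf2bp3-/-, where replicate 2 was the highest of all 12 libraries.

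The exchanger Slc9c1 and the cyclase Adcy10 formed the next level. Slc9c1 read 75.8, 78.7 and 85.5 FPKM in Igf2bp3+/- RNA-seq (80.0 ± 4.97, n = 3) and 70.7, 75.3 and 73.8 in Igf2bp3-/- RNA-seq, where every library was below every control. Adcy10 read 71.1, 76.9 and 92.6 FPKM (80.2 ± 11.1, n = 3) in Igf2bp3+/- RNA-seq and 73.9, 72.6 and 68.4 in Igf2bp3-/-. The FPKM ratio of Slc9c1 to Adcy10 was thus 1.0 ± 0.0729 in Igf2bp3+/- and 1.02 ± 0.0625 in Igf2bp3-/- RNA-seq (SD, n = 3). In RNC-seq both were far lower. Slc9c1 read 30.4, 23.7 and 39.3 FPKM in Igf2bp3+/- and 28.6, 37.9 and 26.2 in Igf2bp3-/-. Adcy10 read 29.0, 31.8 and 36.2 FPKM in Igf2bp3+/- RNC-seq and 34.0, 62.2 and 34.6 in Igf2bp3-/-, again with replicate 2 the highest of its group.

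Slc26a8, the testis anion transporter needed for sperm motility, read 53.8, 61.9 and 58.4 FPKM in Igf2bp3+/- RNA-seq (58.0 ± 4.03, n = 3) and 56.9, 58.7 and 54.4 in Igf2bp3-/-. In RNC-seq it read 38.2, 39.8 and 43.0 FPKM in Igf2bp3+/- and 41.5, 61.6 and 38.4 in Igf2bp3-/-. The genotypes overlapped in both assays, and Igf2bp3-/- RNC-seq replicate 2 was once more the highest polysomal value.

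The channel subunits Kcnu1 and Lrrc52 were present at nearly the same density. Kcnu1 read 21.7, 22.2 and 21.4 FPKM in Igf2bp3+/- RNA-seq (21.8 ± 0.387, n = 3) and 24.5, 26.2 and 27.5 in Igf2bp3-/- (26.1 ± 1.51, n = 3). Lrrc52 read 20.5, 22.5 and 22.8 FPKM in Igf2bp3+/- RNA-seq (21.9 ± 1.24, n = 3) and 24.6, 27.0 and 29.5 in Igf2bp3-/- (27.0 ± 2.46, n = 3). For both subunits all 3 Igf2bp3-/- RNA-seq libraries were above all 3 controls. In RNC-seq Kcnu1 read 18.9, 17.5 and 22.5 FPKM in Igf2bp3+/- and 20.9, 23.6 and 17.6 in Igf2bp3-/-. Lrrc52 read 26.3, 23.9 and 27.3 FPKM in Igf2bp3+/- RNC-seq and 31.4, 26.3 and 27.9 in Igf2bp3-/-. Here the genotypes overlapped, and Lrrc52 was above Kcnu1 in each of the 6 polysomal libraries.

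Atp2b4, a plasma membrane calcium pump (PMCA4) of the sperm tail, was the lowest of the 7 tested members. It read 3.01, 3.11 and 4.65 FPKM in Igf2bp3+/- RNA-seq (3.59 ± 0.919, n = 3) and 2.65, 2.64 and 1.35 in Igf2bp3-/- (2.21 ± 0.745, n = 3), below every control. In RNC-seq it read 0.474, 0.572 and 1.36 FPKM in Igf2bp3+/- and 0.697, 1.49 and 0.765 in Igf2bp3-/-. The proton channel gene Hvcn1 was at the floor of the table. It read 0.104, 0.0283 and 0.0633 FPKM in Igf2bp3+/- RNA-seq and 0.0343, 0 and 0.0191 in Igf2bp3-/-, and 5 of its 6 RNC-seq values were listed at 0, with 0.0848 in Igf2bp3-/- replicate 1.

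**Figure D1:**
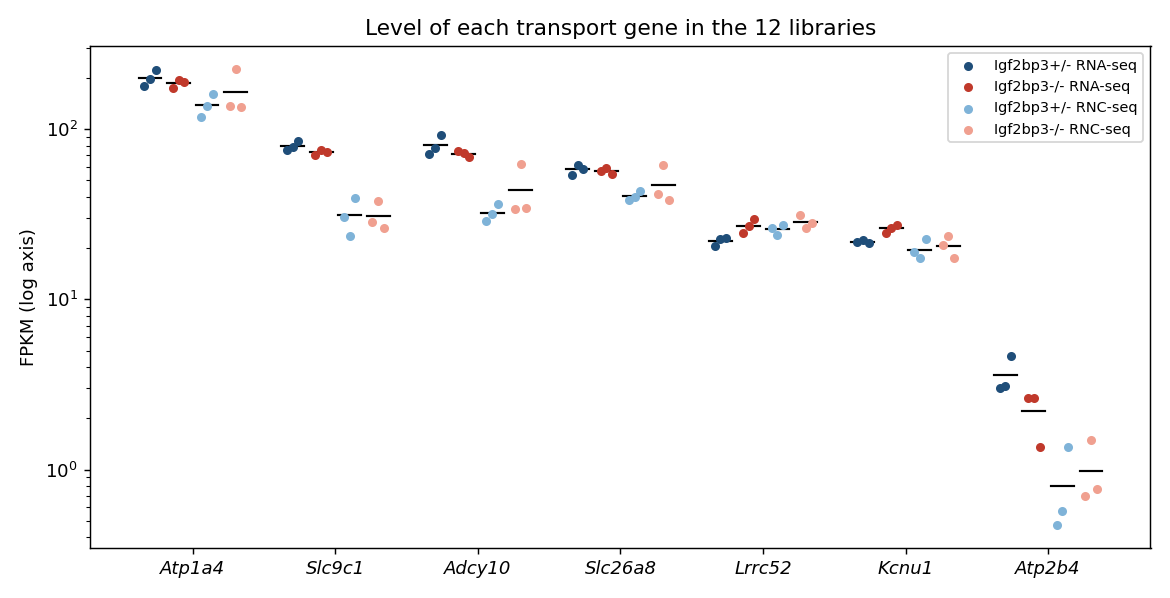
FPKM (log axis) of the 7 tested members, each point 1 library and each black line a group mean (n = 3), by genotype and assay. Atp1a4 is the highest and Atp2b4 the lowest in every group, Slc9c1 and Adcy10 fall from means of 80.0 and 80.2 FPKM in RNA-seq to 31.2 and 32.3 in RNC-seq of Igf2bp3+/-, and Hvcn1 (0.0651 FPKM or less on average) is not drawn.

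The order of the levels in Igf2bp3+/- RNA-seq was Atp1a4, Adcy10, Slc9c1, Slc26a8, Lrrc52, Kcnu1, Atp2b4 and Hvcn1. Within it, Adcy10 and Slc9c1 overlapped between libraries, as did Lrrc52 and Kcnu1, whereas every other pair of neighbours was separate. The step from Atp1a4 to Adcy10 was 2.5-fold, and that from Kcnu1 to Atp2b4 was 6.05-fold. On polysomes of Igf2bp3+/- cells the order changed in 1 respect: Slc26a8 (40.3 ± 2.46 FPKM) stood above Adcy10 (32.3 ± 3.62) and Slc9c1 (31.2 ± 7.84), with no overlap between Slc26a8 and Adcy10. Slc9c1 then overlapped Lrrc52 (25.9 ± 1.73) in RNC-seq, while Lrrc52 and Kcnu1 (19.6 ± 2.58) became separate.

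The members were next compared between the assays to see how the level on polysomes stood against the total level in the same cells. In Igf2bp3+/- cells, 5 of 7 members were lower in RNC-seq than in RNA-seq and none was higher. Of all 18414 genes tested, 43.4% passed the limit, 18.2% as higher and 25.2% as lower, and the libraries of the assays did not overlap for 55.6% of genes, against 6 of the 7 members. The largest fall was that of Atp2b4 (log2 change -2.13 ± 0.36 SE, limma adjusted p = 0.00208). Slc9c1 (-1.39 ± 0.18, adjusted p = 6.08e-04) and Adcy10 (-1.31 ± 0.14, adjusted p = 2.93e-04) followed, and 8.45% and 9.8% of all genes lay lower still. The falls of Atp1a4 (-0.54 ± 0.15, adjusted p = 0.0172) and Slc26a8 (-0.52 ± 0.12, adjusted p = 0.00697) were smaller and near the median of the set (-0.54), while the median of all genes was -0.10. Kcnu1 (-0.15 ± 0.13, 95% interval -0.46 to 0.15, adjusted p = 0.382) did not pass the limit. Lrrc52 (0.24 ± 0.12, adjusted p = 0.147) did not pass it either, although its 3 RNC-seq libraries were all above its 3 RNA-seq libraries. FPKM is relative to each library, so a lower RNC-seq value is a lower share of the polysomal pool and not an amount. When every library was centred on its own median, the median change of all genes went from -0.10 to 0.07. Under it Atp1a4 (-0.37, adjusted p = 0.105) and Slc26a8 (-0.35, adjusted p = 0.0542) no longer passed, Lrrc52 passed as higher (0.40, adjusted p = 0.0312), Kcnu1 changed sign (0.01), and Atp2b4, Slc9c1 and Adcy10 stayed called. The call of Atp1a4 was also lost when replicate 2 (adjusted p = 0.0537) or replicate 3 (0.0593) of RNA-seq or replicate 1 of RNC-seq (0.0539) was left out, and with no filter on low FPKM (0.052).

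As a ratio of group means, the RNC-seq level in Igf2bp3+/- was 1.18 times the RNA-seq level for Lrrc52 and 0.903 times for Kcnu1, against a median of 0.936 over all genes. It was 0.695 for Slc26a8, 0.689 for Atp1a4, 0.403 for Adcy10, 0.39 for Slc9c1 and 0.223 for Atp2b4. The ratio of Adcy10 hardly varied between libraries of the same number (0.407, 0.413 and 0.391), and that of Atp2b4 varied more (0.157, 0.184 and 0.293). By the methods, both assays start from a shared extract, but the labels do not say that the replicate numbers match between them.

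The members differ in length, and coding length goes with this ratio over the background genes used above for the leaders. The median ratio in Igf2bp3+/- was 1.11 among 6121 genes with a coding length at or below the median of 1323 bases and 0.651 (quartiles 0.438 and 0.919) among 6108 genes above it. Lrrc52 (942 coding bases) is the only tested member in the shorter class, and its 1.18 lies close to that class's median. Kcnu1 (3363 bases), at 0.903, lies just below the upper quartile of the longer class, and Slc26a8 (2997 bases) and Atp1a4 (3096 bases) lie close to its median. Slc9c1 (3525 bases), Adcy10 (4842 bases) and Atp2b4 (3615 bases) lie below its lower quartile. Leader features went with smaller differences over the same genes, with a median ratio of 0.854 without and 0.825 with an ATG in the leader, and 0.913 for leaders at or below the median length against 0.773 for longer ones. Genes of these classes overlap in other properties, and the part of length in the members' ratios was not tested.

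In Igf2bp3-/- cells, 3 of 7 members were lower in RNC-seq than in RNA-seq, where 21.1% of all 18414 genes passed the limit, 10.2% as higher and 11% as lower, and 40.7% of genes had libraries that did not overlap (3 of 7 members). Slc9c1 fell by 1.26 on the log2 scale (SE 0.18, limma adjusted p = 0.00335), Adcy10 by 0.77 (SE 0.23, adjusted p = 0.0439) and Atp2b4 by 1.11 (SE 0.35, adjusted p = 0.0498). For Atp2b4 the assays overlapped, since RNC-seq replicate 2 (1.49 FPKM) was above RNA-seq replicate 3 (1.35 FPKM). Atp1a4 (-0.21, adjusted p = 0.519), Slc26a8 (-0.30, adjusted p = 0.316), Kcnu1 (-0.34, adjusted p = 0.184) and Lrrc52 (0.08, adjusted p = 0.765) did not pass. Without Igf2bp3-/- RNC-seq replicate 2 the members called rose from 3 to 5, with Atp1a4 at -0.45 (adjusted p = 0.0257) and Slc26a8 at -0.50 (adjusted p = 0.0176) added, while genes called over the whole table rose from 3890 to 6306. The calls of Adcy10 and Atp2b4 were the fragile ones: each was lost under median centring (adjusted p = 0.0553 and 0.0631), with no filter (0.138 and 0.161), and without a library other than RNC-seq replicate 2 (in 5 of 5 such fits for Adcy10 and 4 of 5 for Atp2b4). Slc9c1 stayed called under each of the 14 alternatives run between the assays of Igf2bp3-/-, which were filters, scalings, weights, pseudocount, the replicate block and leaving out each library.

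**Figure D2:**
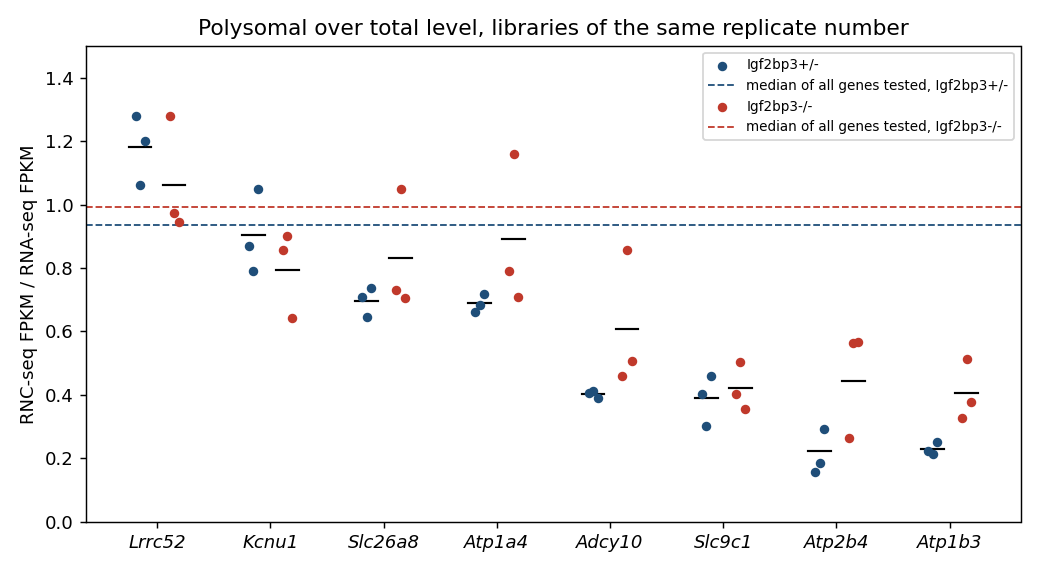
RNC-seq FPKM over RNA-seq FPKM for libraries of the same replicate number (points), with the ratio of group means (black lines), by genotype; dashed lines give the median of all genes tested, 0.936 in Igf2bp3+/- and 0.993 in Igf2bp3-/-. Lrrc52 lies around the median, as does Kcnu1 in Igf2bp3+/- (0.903), while Kcnu1 in Igf2bp3-/- (0.795) lies below it. Adcy10, Slc9c1, Atp2b4 and the pump subunit Atp1b3 lie well below the median in both genotypes. Replicate 2 is the highest Igf2bp3-/- point for Kcnu1, Slc26a8, Atp1a4, Adcy10, Slc9c1 and Atp1b3.

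Partner genes were then set against each other within each library, where library scaling cancels. Kcnu1 over Lrrc52 was 1.06, 0.984 and 0.937 in Igf2bp3+/- RNA-seq (0.994 ± 0.0613, n = 3) and 0.718, 0.732 and 0.824 in Igf2bp3+/- RNC-seq (0.758 ± 0.0579, n = 3), so that the channel pore was level with its subunit in total RNA and below it on polysomes. The same held in Igf2bp3-/-, from 0.966 ± 0.0321 to 0.732 ± 0.143, and the assays did not overlap in either genotype. With 3 against 3 libraries the smallest two-sided p of the exact permutation test is 0.1, which both comparisons reached (adjusted p = 0.2 over 12 tests of this kind), so no such ratio could pass 0.05. Genotype did not separate this ratio in RNA-seq (exact permutation p = 0.6) or RNC-seq (p = 0.7).

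The sodium pump works as a catalytic alpha with a beta subunit, and the levels of Atp1a4 and Atp1b3 were nearly equal in total RNA. Atp1b3 read 180, 187 and 191 FPKM in Igf2bp3+/- RNA-seq but 40.3, 39.7 and 48.0 in RNC-seq. Atp1a4 over Atp1b3 therefore went from 1.07 ± 0.0885 to 3.23 ± 0.266 in Igf2bp3+/- and from 1.27 ± 0.212 to 2.74 ± 0.179 in Igf2bp3-/-, without overlap (exact permutation p = 0.1, adjusted p = 0.2). Between genotypes the ratio overlapped in RNA-seq (exact permutation p = 0.3) and did not overlap in RNC-seq (2.93 to 3.42 in Igf2bp3+/- and 2.55 to 2.9 in Igf2bp3-/-, log2 difference -0.23, exact permutation p = 0.1, adjusted p = 0.2). Atp1a4 itself overlapped between genotypes in both assays. Atp1b3 did not overlap, as lower in Igf2bp3-/- RNA-seq (log2 change -0.34, limma adjusted p = 0.212) and higher in RNC-seq (0.46, adjusted p = 0.768). Of all genes, 22.7% and 11.3% did not overlap in these assays. The fall of Atp1b3 on polysomes was as large as that of Atp2b4 (log2 change -2.13 ± 0.12, limma adjusted p = 5.40e-05 in Igf2bp3+/-). A copy of Atp1b3, Gm1848, matches 40.4% of its longest transcript, so its level is uncertain over that part. Slc9c1 over Adcy10 stayed near 1.0 in Igf2bp3+/- (0.961 ± 0.187 in RNC-seq, exact permutation p = 0.9). In Igf2bp3-/- it was 1.02 ± 0.0625 in RNA-seq and 0.735 ± 0.117 in RNC-seq without overlap (exact permutation p = 0.1, adjusted p = 0.2). Between genotypes this ratio overlapped in RNA-seq (exact permutation p = 0.6) and in RNC-seq (exact permutation p = 0.3, adjusted p = 0.45).

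The central comparison of the study, Igf2bp3-/- against Igf2bp3+/-, called none of the 7 members in RNA-seq, in RNC-seq or in translational efficiency (TE, the change of RNC-seq relative to RNA-seq). Few genes were called at all: 0.256% of 20352 in RNA-seq, 0.115% of 19051 in RNC-seq and 0.00543% of 18414 in TE, so a count of 0 among 7 genes is what the background gives and is no result about them. At an unadjusted p under 0.05 there were 3 members in RNA-seq (15.7% of all genes), 0 in RNC-seq and 0 in TE (7.13% of all genes). In RNA-seq the libraries did not overlap for 4 members against 22.7% of all genes, and in RNC-seq for 0 members against 11.3%. A looser criterion, taken from a legend of the study and added after seeing the data, asks for a limma p under 0.05 with no adjustment and a 1.5-fold change. By it Atp2b4 was called as lower in RNA-seq (limma adjusted p = 0.284), where 5.45% of all genes were called in either direction. No member was called by it in RNC-seq (5.78% of all genes) or TE (6.55%).

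In total RNA, the channel subunits had the only positive values, neither of which passed the test. The log2 change was 0.26 ± 0.09 for Kcnu1 (limma adjusted p = 0.24) and 0.30 ± 0.10 for Lrrc52 (adjusted p = 0.239), with 95% intervals of 0.06 to 0.46 and 0.06 to 0.53. Rescaling without CT010467.1 lowered them to 0.14 and 0.17. Atp2b4 stood lower at -0.71 ± 0.28 (adjusted p = 0.284, interval -1.34 to -0.07). The value rests in part on replicate 3 of each genotype, since leaving out that of Igf2bp3-/- gave -0.40 and leaving out that of Igf2bp3+/- gave -0.51. Slc9c1 (-0.13 ± 0.08, adjusted p = 0.495), Adcy10 (-0.15 ± 0.11, adjusted p = 0.52), Atp1a4 (-0.10 ± 0.10, adjusted p = 0.657) and Slc26a8 (-0.03 ± 0.09, adjusted p = 0.885) had intervals within -0.40 to 0.17. The median over the 7 was -0.10 and that over all genes 0.05. In the same Igf2bp3-/- libraries the Leydig and blood markers, Clu and Dcn were higher, and so was the summed level of the round spermatid markers (a mean of 1093 and 1340 FPKM), and the part of these in the members' values was not tested.

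On polysomes, the change of Slc9c1 was near 0 (-0.0011 ± 0.24, 95% interval -0.53 to 0.53), and the other 6 members had positive values, the largest for Adcy10 (0.38 ± 0.26, limma adjusted p = 0.831), Atp2b4 (0.32 ± 0.42, adjusted p = 0.909) and Atp1a4 (0.23 ± 0.24, adjusted p = 0.883). The median over the 7 was 0.19 and that over all genes 0.13, and 65.3% of all genes were positive. These values moved with single libraries. Without Igf2bp3-/- RNC-seq replicate 2 Adcy10 was at 0.09, Atp2b4 at 0.01, Atp1a4 at -0.01 and Slc26a8 at -0.01 (0.19 with it). Atp2b4 was also at 0.06, 0.17 and 0.73 without Igf2bp3+/- RNC-seq replicate 1, 2 and 3, and at 0.50 without Igf2bp3-/- replicate 1. Atp1a4 was at 0.12 without Igf2bp3+/- replicate 1 and at 0.36 without Igf2bp3-/- replicate 3, and Slc26a8 at 0.33 without the latter. Kcnu1 (0.07) and Lrrc52 (0.14) were also near 0, and the sign of Kcnu1 turned under 3 scalings (-0.04 to -0.05) while that of Lrrc52 turned under quantile normalization (-0.0044).

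For TE the fitted changes were widest for Atp2b4 (1.02 ± 0.54, interval -0.14 to 2.19, limma adjusted p = 0.716) and Adcy10 (0.53 ± 0.29, interval -0.09 to 1.16, adjusted p = 0.716). Atp1a4 (0.33 ± 0.27), Slc26a8 (0.23 ± 0.23) and Slc9c1 (0.12 ± 0.26) followed, while Lrrc52 (-0.16 ± 0.19) and Kcnu1 (-0.18 ± 0.21) were the negative ones. Leaving out a library moved the change of Atp2b4 between 0.71 (Igf2bp3-/- RNC-seq replicate 2; 0.72 without Igf2bp3-/- RNA-seq replicate 3) and 1.44 (Igf2bp3+/- RNC-seq replicate 3), and library weights gave 0.52. Without Igf2bp3-/- RNC-seq replicate 2 the change went to 0.25 for Adcy10, to 0.09 for Atp1a4 and to 0.02 for Slc26a8. The intervals of Atp2b4 and Adcy10 hold no change as well as their fitted 2.03-fold and 1.45-fold changes.

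**Figure D3:**
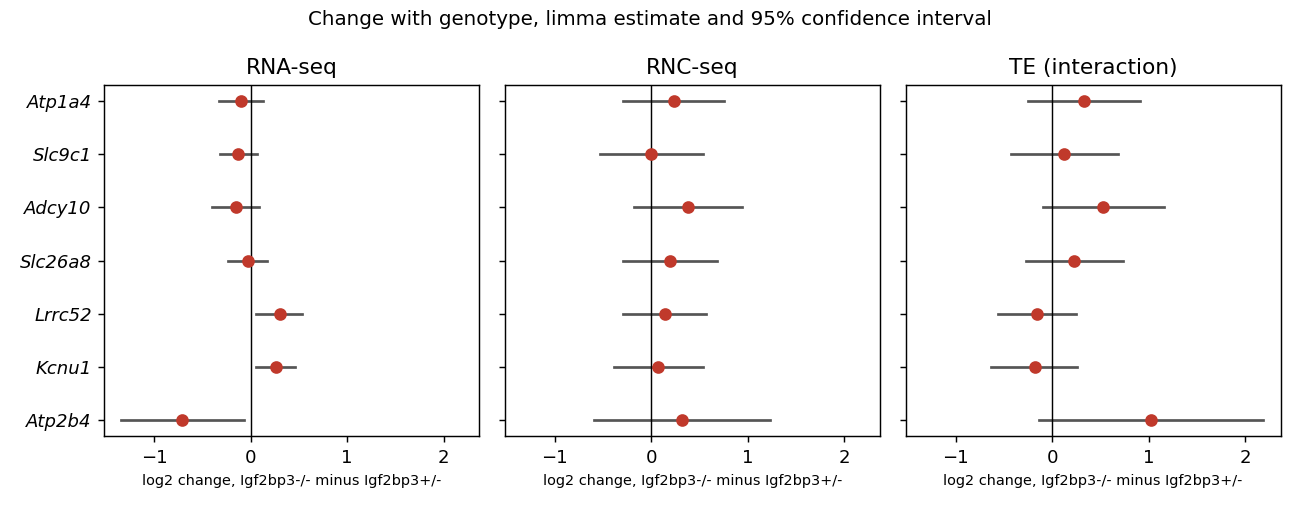
Log2 change of the 7 members, Igf2bp3-/- minus Igf2bp3+/-, in RNA-seq, in RNC-seq and in TE; points are limma estimates and lines their 95% confidence intervals. In RNA-seq the intervals of Kcnu1, Lrrc52 and Atp2b4 leave out 0 before adjustment over all genes, and in RNC-seq and TE every interval holds 0.

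The members were next set beside relatives, partners and other genes linked to their functions in transport and cAMP signalling, 43 genes of which 39 had a row. The sperm forms of the potassium channel and its subunit stood above their relatives. Kcnu1 (21.8 FPKM) stood far above Kcnma1, the broadly expressed large-conductance potassium channel, at 0.19, 0.429 and 0.353 FPKM in Igf2bp3+/- RNA-seq. Lrrc52 (21.9 FPKM) stood above Lrrc26, the subunit of the epithelial form of that channel, at 0.764, 0.784 and 0.888 FPKM. Of the beta subunits, Atp1b3 (186.0 ± 5.86) was the abundant one and Atp1b1 was at 0.25 ± 0.0579. Atp1b1 was chosen for this contrast after its values were seen.

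The exchangers and the cAMP genes did not follow that pattern. The sperm-specific exchanger Slc9b1 (78.0, 77.9 and 70.9 FPKM in Igf2bp3+/- RNA-seq) was level with Slc9c1, and on polysomes it kept that level (75.6, 61.7 and 86.6 FPKM) while Slc9c1 did not. The ratio of RNC-seq to RNA-seq means was 0.987 for Slc9b1 and 0.39 for Slc9c1. Prkaca, the catalytic subunit of the protein kinase that cAMP activates, read 98.6, 122 and 110 FPKM in Igf2bp3+/- RNA-seq, above Adcy10. Racgap1, a reported partner of Slc26a8, read 15.6, 14.6 and 15.5 FPKM, and Atp2a2, the calcium pump of the endoplasmic reticulum, read 4.08, 3.56 and 3.88, close to Atp2b4. Tpte, a testis voltage-sensor phosphatase whose sensor resembles that of Hvcn1, read 3.55, 4.24 and 3.53 FPKM.

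**Figure D4:**
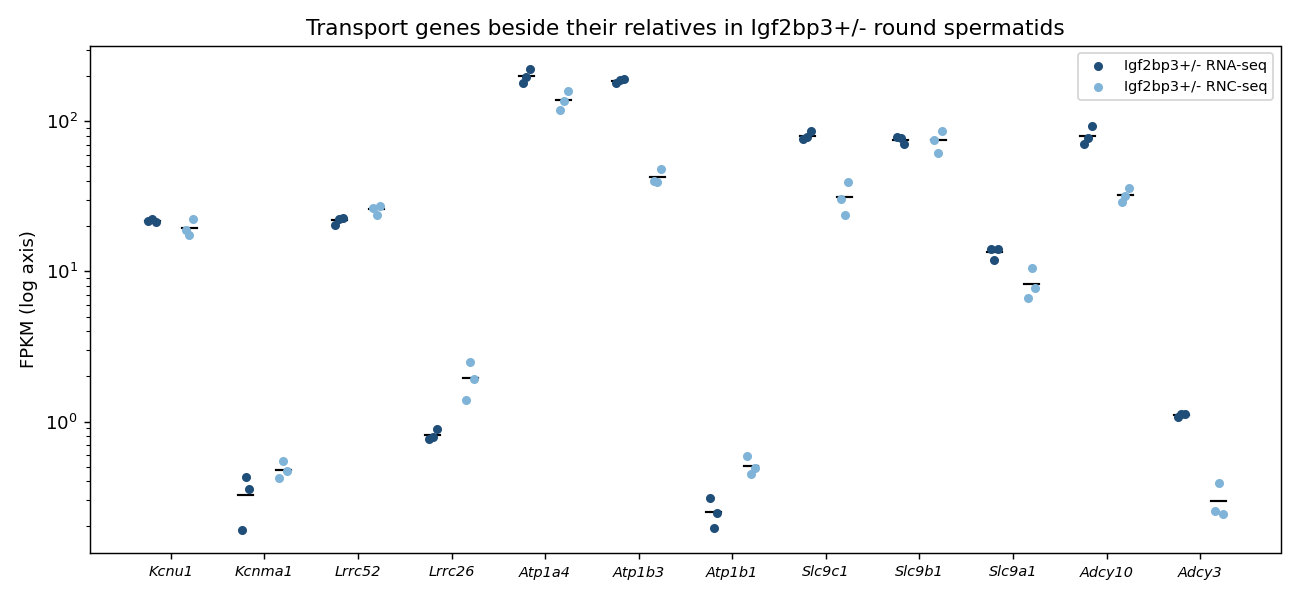
FPKM (log axis) of members and relatives in the Igf2bp3+/- libraries, points for each of 3 libraries per assay and black lines for means. Kcnu1 and Lrrc52 lie well above Kcnma1 and Lrrc26, Slc9b1 holds its level on polysomes, and Atp1b3 drops from 186.0 to 42.7 FPKM.

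With genotype, none of the other transport and cAMP genes was called in RNA-seq (32 tested), RNC-seq (28 tested) or TE (28 tested). Their median changes were -0.02, 0.20 and 0.26. Between assays in Igf2bp3+/- cells, 12 of 28 were lower on polysomes and 3 were higher (25.2% and 18.2% of all 18414 genes). In Igf2bp3-/- cells 5 were lower and 1 was higher (11% and 10.2% of all genes). Those named by their level included Prkaca (-0.56 ± 0.12, limma adjusted p = 0.00597), Racgap1 (-0.53 ± 0.14, adjusted p = 0.0155) and Atp2a2 (-1.27 ± 0.18, adjusted p = 8.08e-04), all lower in Igf2bp3+/- RNC-seq. Lrrc26 was higher there (1.13 ± 0.25, adjusted p = 0.00687), and Slc9b1 (-0.03 ± 0.14, adjusted p = 0.884), Kcnma1 (0.48 ± 0.32, adjusted p = 0.25) and Tpte (-0.38 ± 0.27, adjusted p = 0.291) did not pass.

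The profile of each member over the 12 libraries, after its own mean was subtracted, was compared with those of 12264 other genes with a mean FPKM of at least 1, by the root mean square difference on the log2 scale. This is a description over libraries that share their scaling. The nearest gene was Slc22a21 for Kcnu1 (0.05), Oscp1 for Lrrc52 (0.05), Dhx30 for Atp1a4 (0.07), Agbl2 for Slc26a8 (0.07), Lig3 for Adcy10 (0.08), Top2a for Slc9c1 (0.09) and Lmtk2 for Atp2b4 (0.24). Among the members, Atp1a4 and Slc26a8 were closest to each other (0.10), with Slc26a8 at rank 12 among the genes nearest to Atp1a4 and Atp1a4 at rank 21 among those nearest to Slc26a8. In Igf2bp3-/- RNC-seq both were highest in replicate 2 (226 and 61.6 FPKM), and profiles were not compared without that library. Slc9c1 and Adcy10 were each other's nearest member (0.26), at ranks 401 and 719 of all genes. Kcnu1 and Lrrc52 were not an especially close pair: Kcnu1 was at rank 2125 for Lrrc52 (0.24), and the member nearest to Kcnu1 was Slc26a8 (0.18). The root mean square of the gene's own profile was 0.20 for Kcnu1 and 0.17 for Lrrc52, against 0.69 for Slc9c1 and 0.59 for Adcy10. The differences within these pairs are therefore not on a like scale.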

How the data were processed

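RNA-seq and RNC-seq of sorted round spermatids were analysed from a single deposited table of FPKM (12 libraries, 4 groups of 3). Per the study's methods, the authors trimmed reads with Trim Galore 0.6.6, aligned them to GRCm38 with Hisat2 and computed FPKM with StringTie 2.1.7; the annotation release, strand use and depth are not given in the sources used here, and the labels and the methods name different library kits and instruments. Columns named WT in the table are Igf2bp3+/- by the labels. Of 28668 symbols, 25 turned into dates were left out.

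Values were taken as log2(FPKM + 0.1), on which fold changes of low genes are understated. limma 3.58.1 (R 4.3.3, moderated two-sided test with intensity trend) was fitted to all genes with a mean above 0.1, in each assay for genotype, in each genotype for assay, and over 12 libraries for TE as the interaction, with Benjamini-Hochberg adjustment over all genes and a limit of 0.05. Errors of log2 changes are SE. The fits were tested on simulated data. Within-library ratios of gene pairs were compared with two-sided exact permutation tests. Copies were sought with BLAST 2.17.0. The named genes were all members, the highest other listed gene of each role in Igf2bp3+/- RNA-seq, other listed genes called with genotype, and the nearest profile of each member. Members, lists and tests were chosen with earlier results of these data known. The study calls the replicates biological and describes cells taken from each mouse; the labels give replicate numbers only. Intervals cover the spread between libraries only. Alternatives were another pseudocount, filters, scalings, library weights, a replicate block, a fit over all libraries (genotype only), the fold criteria that the study states in its methods (genotype only) and, added after seeing the data, in a legend, and leaving out each library. Values of some listed genes are not reported here.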

Additional observations from a re-analysis of the deposited data

How the results depend on the processing

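No member was called with genotype in RNC-seq or TE under the alternatives run, and in RNA-seq only Atp2b4 was called (1 member), by the 1.5-fold criterion added after seeing the data, and the limit here is 3 libraries a group and unknown depth. Over all genes, calls with genotype in RNA-seq (52) went to 13 with no filter, 84 with library weights, 4 with the replicate block, 158 at an unadjusted p under 0.05 with a log2 change over 1.5 (the criterion in the study's methods) and 1109 with a change over 1.5-fold (that in a legend of the study), and to 9–33 leaving out a replicate. In RNC-seq (22) they went to 13 with no filter or median centring, 12 with quantile normalization, 48 in the fit over all 12 libraries and 188 and 1102 by these criteria, and to 0–12 leaving out a replicate. In TE (1) they went to 0 with pseudocount 1, a mean FPKM above 1, library weights or the replicate block, 4 with no filter and 196 and 1207 by these criteria, and to 1–2 leaving out a replicate. Between assays in Igf2bp3-/- (3890), they went to 2331 with no filter and 1107–6306 leaving out a replicate, and members called (3) went to 1 with no filter or median centring and 1–5 leaving out a replicate. In Igf2bp3+/- the count of members called was 4 or 5 throughout, but not always of the same members: median centring lost Atp1a4 and Slc26a8 and added Lrrc52 as higher, a mean FPKM above 1 left Atp2b4 untested, and no filter lost Atp1a4 and brought in Hvcn1. The causes were not tested.

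With genotype in RNC-seq, Kcnu1 turned under median centring (-0.04), quantile normalization (-0.05), rescaling without CT010467.1 (-0.04), library weights (-0.01) and without a replicate (-0.02 to 0.19), Lrrc52 under quantile normalization (-0.0044), Slc9c1 without a replicate (-0.18 to 0.18), and Atp1a4 (-0.01 to 0.36) and Slc26a8 (-0.01 to 0.33) without a replicate, both through Igf2bp3-/- replicate 2. In RNA-seq, Slc26a8 turned without a replicate (-0.09 to 0.01). In TE, Slc9c1 turned under median centring (-0.01), library weights (-0.04) and without a replicate (-0.06 to 0.31). Between assays, Kcnu1 turned under median centring in Igf2bp3+/- (0.01) and Lrrc52 under rescaling without CT010467.1 in Igf2bp3-/- (-0.14).

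Same-numbered libraries did not deviate together in every pair (r of -0.104 to 0.205 between assays and -0.083 to 0.241 between genotypes, over 12265 genes), so the numbers were not taken as pairs. The replicate block changed no call of a member, with 31 genes called in RNC-seq, 7764 between assays in Igf2bp3+/- and 4101 in Igf2bp3-/-.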
